A study of Mus musculus with 14 samples.

Results

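The enterocyte packs dietary fat into chylomicrons, and 10 genes of that route were followed here in the ileum mucosa of mice without NCoR1 in the intestinal epithelium. They were taken by name from the table of 54532 genes: the apolipoprotein genes Apoa1, Apoa4, Apob, Apoc2 and Apoc3, the lipid transfer gene Mttp, the acyltransferase genes Mogat2, Dgat1 and Dgat2, and the vesicle gene Sar1b. All 10 had a row, and 9 passed the filter on low counts. Apoc2 did not pass it. NCoR1 is a corepressor that holds back transcription by nuclear receptors. The WT group was 7 male mice with floxed NCoR1 alleles (NCoR1 flox/flox) and no Cre. The IKO group was 7 male mice with the same floxed alleles and a Cre transgene under the villin promoter, which drives Cre in the intestinal epithelium, and other cells of the mucosa were not targeted. Both groups started at an age of 7 to 8 weeks and received a high-fat diet (HFD) for 15 weeks, and 1 library was made per mouse. No chow-fed mice were among the 14 libraries.

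Chylomicron assembly is a relay. Fatty acids and monoacylglycerol taken up from the lumen are joined at the endoplasmic reticulum (ER), where MOGAT2 makes diacylglycerol and DGAT1 and DGAT2 make triacylglycerol. The transfer protein MTTP loads this fat onto apolipoprotein B, the single scaffold protein of each particle. Apolipoprotein A-IV enlarges the particle, A-I and the C apolipoproteins ride on its surface, and SAR1B, a small GTPase of the COPII coat, helps it leave the ER. In plasma, C-II activates lipoprotein lipase and C-III restrains it. Loss of Apob, Mttp or Sar1b function in humans gives fat malabsorption.

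Apoa1, Apoc3 and Apoa4 lie side by side on chromosome 9 within 14.9 kb, at 46228580 to 46230466 on the plus strand, 46232933 to 46235636 on the minus strand and 46240696 to 46243459 on the plus strand (mm10). Apob is on chromosome 12 (7977648 to 8016835, plus strand), and Mttp is on chromosome 3 (138089854 to 138144968, minus strand). Dgat2 and Mogat2 are neighbours on chromosome 7, at 99153658 to 99182719 and 99219084 to 99238619, with 36.4 kb between them and both on the minus strand. Apoc2 is elsewhere on chromosome 7 (19671579 to 19677941, minus strand), Dgat1 is on chromosome 15 (76502015 to 76511953, minus strand), and Sar1b is on chromosome 11 (51763687 to 51791925, plus strand).

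RefSeq promoter sequences (GRCm38.p6, the same assembly as mm10) were matched to 6 of the 10 genes: Apoa1, Apoa4, Apob, Apoc2, Mttp and Sar1b. A total of 4 are shown, each as the 250 bases before the RefSeq start, because they contrast the most abundant surface apolipoprotein genes and the scaffold gene with Apoc2, which was close to silent in these libraries. Capitals mark matches to one of 4 motifs, searched on both strands. These were a direct repeat of AGGTCA, which is 2 copies in the same orientation with 1 base between, the form bound by HNF4 and other nuclear receptors, with up to 3 mismatches; a single AGGTCA; CAAAGTCCA, an HNF4 motif, with up to 1 mismatch; and TATAAA. The single AGGTCA is also contained in the repeat.
Apoa1, chr9:46228380-46228629, plus strand: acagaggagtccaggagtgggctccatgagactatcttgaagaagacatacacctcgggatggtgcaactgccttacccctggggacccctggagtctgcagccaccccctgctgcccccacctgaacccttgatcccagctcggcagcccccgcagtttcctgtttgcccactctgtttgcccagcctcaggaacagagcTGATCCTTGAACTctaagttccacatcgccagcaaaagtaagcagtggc
Apoa4, chr9:46240594-46240843, plus strand: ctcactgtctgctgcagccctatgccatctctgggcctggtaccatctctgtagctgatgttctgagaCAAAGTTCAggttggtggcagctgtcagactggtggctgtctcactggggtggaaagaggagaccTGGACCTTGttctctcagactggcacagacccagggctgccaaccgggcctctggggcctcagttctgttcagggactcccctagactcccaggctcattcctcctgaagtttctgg
Apob, chr12:7977427-7977676, plus strand: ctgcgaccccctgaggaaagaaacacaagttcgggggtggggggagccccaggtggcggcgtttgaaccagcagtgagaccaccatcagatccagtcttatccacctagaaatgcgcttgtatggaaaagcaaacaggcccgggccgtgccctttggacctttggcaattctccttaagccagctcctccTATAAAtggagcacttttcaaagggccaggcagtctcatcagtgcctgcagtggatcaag
Apoc2, chr7:19677942-19678191, minus strand: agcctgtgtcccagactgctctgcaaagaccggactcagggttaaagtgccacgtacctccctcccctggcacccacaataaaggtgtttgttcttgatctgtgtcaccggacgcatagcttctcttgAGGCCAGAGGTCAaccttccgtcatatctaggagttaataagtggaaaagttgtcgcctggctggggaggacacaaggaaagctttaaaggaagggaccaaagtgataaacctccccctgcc
The last 50 bases shown for Apoa1, the last 148 for Apoa4 and the last 29 for Apob lie inside the gene as the count table draws it, whereas the Apoc2 stretch lies wholly before the gene.

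Positions are counted from the RefSeq start, so that -1 is the base before it. The Apoa1 window held a direct repeat with 3 mismatches on the minus strand at -49 to -37. In Apoa4 there were CAAAGTCCA matches with 1 mismatch at -182 to -174 on the plus strand and at -117 to -109 on the minus strand. Apob held TATAAA at -60 to -55. The closest direct repeat of the 6 genes stood in Apoc2, with 1 mismatch at -122 to -110, and the downstream copy in it is an exact AGGTCA. Among 32851 mouse promoter windows of 300 bases, 24.6% held the direct repeat under the same rule, 16.3% held AGGTCA, 8.47% held CAAAGTCCA with up to 1 mismatch, and 13.6% held TATAAA. The search of 300 bases found a direct repeat with 3 mismatches in Sar1b at -25 to -13 and no match in Mttp, whose RefSeq window lies inside the gene of the count table. It also found a further direct repeat in Apoc2 past the start, with 3 mismatches at 35 to 47. That repeat holds an exact AGGTCA at 42 to 47.

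The targeted gene was checked first. Ncor1 was between 106 and 195 CPM (counts scaled to the effective size of each library) in WT mice, with a median of 130, and between 31.7 and 64.0 in IKO mice, with a median of 47.7, so the genotypes did not overlap (log2 change -1.41, SE 0.18, adjusted p = 0.00051, edgeR). Libraries held between 14749669 and 21557468 counts. IKO 4 and WT 3 stood apart by their share of mitochondrial transcripts, 50.3% and 23.9% of counts against 3.49% to 10.3% elsewhere, so the main counts below are also given with both left out. Enterocyte markers such as Vil1 and Fabp2 were high in every library (summed level of 8 genes 13413 to 49295 CPM), and hepatocyte markers, which would mark another source of apolipoprotein transcripts, summed to 4.07 CPM or less, with Alb at 0 in most of them. Smooth muscle markers summed to 10855 CPM in WT 4 and to 796 or less in every other library. In bulk mucosa, fewer cells of a type and less RNA per cell cannot be told apart.

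Together, the 10 genes took 1.56% to 5.60% of all counts in WT mice and 0.750% to 4.15% in IKO mice, with the lowest share in IKO 4. Levels of different genes were compared in FPKM, which divides by gene length. Apoa1 had the highest level, 13339 ± 9889 FPKM in WT mice and 16835 ± 4699 in IKO mice (SD, n = 7 each), and ranked 3 among all genes of the table by its WT mean. Apoa4 followed at 1503 ± 1145 in WT mice and stood at 2616 ± 1253 in IKO mice. Both steps, from Apoa1 to Apoa4 and from Apoa4 to Apoc3, had the same order in all 14 libraries. Apoc3 (607 ± 685 FPKM in WT mice) and Apob (336 ± 155) could not be ranked, since Apoc3 was the higher in 3 of 7 WT and 4 of 7 IKO libraries. Apob exceeded Mttp (275 ± 169) in 7 of 7 WT libraries but in 4 of 7 IKO libraries. The order of Mttp and Dgat1 (270 ± 124) and that of Dgat1 and Mogat2 (201 ± 76.1) changed between libraries of both genotypes. Sar1b (141 ± 61.8) exceeded Dgat2 (65.5 ± 28.9) in every library. Apoc2, at 0.613 ± 1.44 FPKM, was the lowest of the 10.

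None of the 9 genes tested differed between the genotypes past an adjusted p of 0.05 in edgeR, where 8.67% of all 13846 genes tested did (607 higher and 593 lower in IKO mice). Before adjustment, p was under 0.05 for 1 of the 9, Sar1b, and for 30.4% of all genes. DESeq2 called 0 of the 9 to which it gave an adjusted p (13.8% of all such genes), and limma-voom with sample quality weights called 1, Sar1b (13.6%). Without WT 3 and IKO 4 the count stayed at 0. The WT and IKO values overlapped for all 9, whereas 3.1% of all genes had no overlap. All 9 fitted log2 changes were above 0, with a median of 0.48. Of all genes 43.5% were above 0, and their median was -0.09. The split of higher and lower calls over all genes moved to 708 and 328 when FPKM values were fitted with limma, and the median of all genes then moved to 0.02. All 9 changes stayed above 0 under that scaling. These 9 values are not independent, since the genes varied together between mice. A p that misses the threshold does not show that the genotypes were equal, and the intervals of the folds, given below, reached from under 1 to 1.78 or more for every gene but Sar1b.

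**Figure D1:**
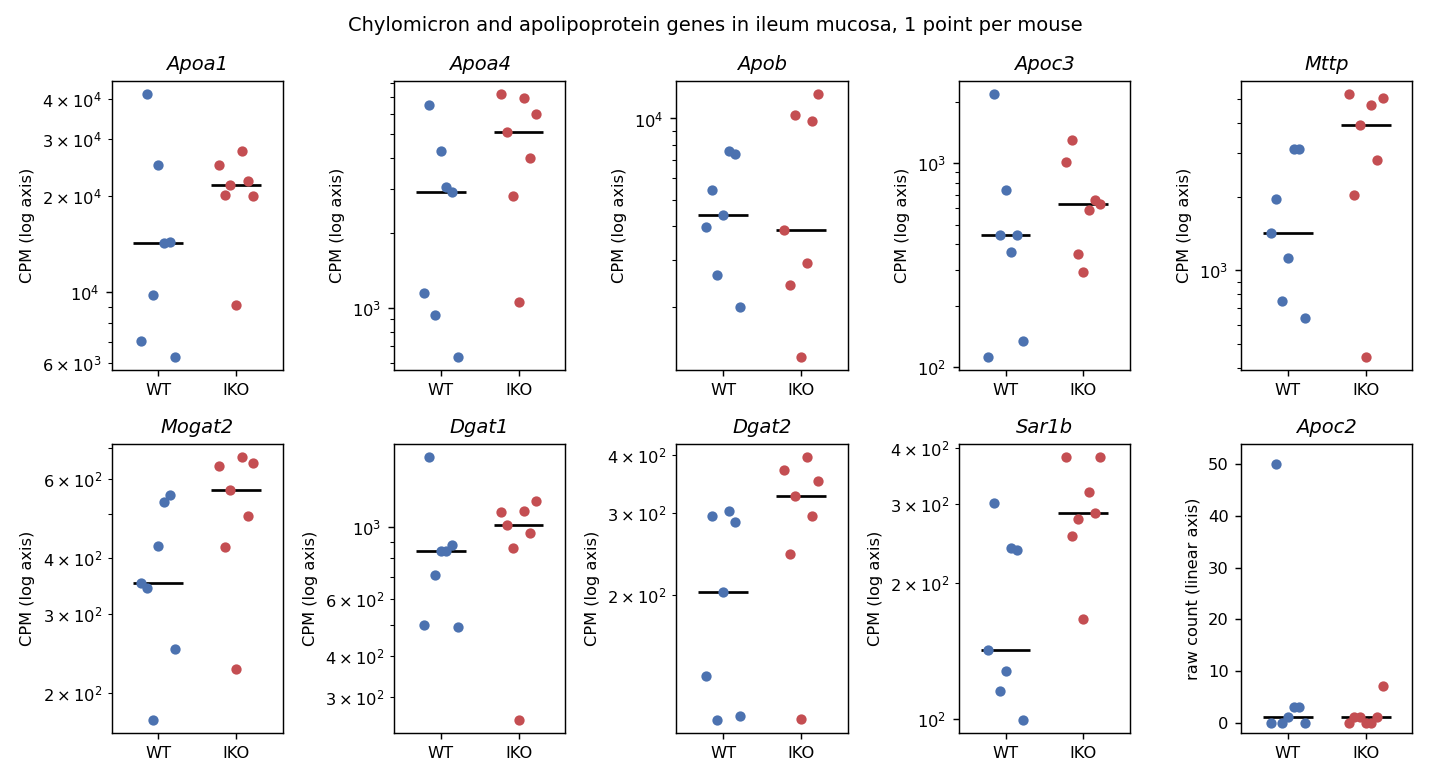
Level of each gene in each mouse, as CPM on a log axis for 9 genes and as the raw count on a linear axis for Apoc2; blue points are WT mice, red points are IKO mice (7 each) and bars are medians. The genotypes overlap in every panel, IKO 4 is the lowest IKO point in all 9 CPM panels, and WT 2 alone holds 50 Apoc2 counts.

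Among the surface apolipoproteins, Apoa1, the main protein of HDL, ranged from 6273 to 41488 CPM in WT mice with a median of 14199, and from 9111 to 27511 in IKO mice with a median of 21580. The highest value of all was in a WT mouse (WT 2), and 6 IKO mice exceeded the WT median. The fold was 1.23 with a 95% interval from 0.672 to 2.26 (log2 change 0.30, SE 0.41, adjusted p = 0.65, edgeR). WT 2 weighed on this value, which was 0.71 on the log2 scale without it (adjusted p = 0.19).

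Apoa4, whose protein is made by the intestine and responds to fat intake, spanned 635 to 6545 CPM in WT mice (median 2909) and 1055 to 7213 in IKO mice (median 5105). A pair of IKO mice exceeded every WT mouse, and IKO 4 stood near the lower WT values. Its fold was 1.70 (0.802 to 3.60), with a log2 change of 0.77, SE 0.51 and adjusted p = 0.32. The transcript Gm47528, annotated on the opposite strand across part of Apoa4, held 2070 counts in WT 2, 64 to 256 in the other WT mice and 25 to 236 in IKO mice. Since the strand setting of the counting was not given in the sources used here, reads of both cannot be told apart, but over all libraries its counts came to 0.412% of those of Apoa4.

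Apoc3, the inhibitor of plasma lipolysis, was the most variable of the tested genes in WT mice, from 112 to 2175 CPM (median 442), a 19.4-fold range. IKO mice spanned 294 to 1302 CPM (median 634). The fold was 1.10 (0.484 to 2.49), with a log2 change of 0.14, SE 0.56 and adjusted p = 0.89. Its direction rested on single mice: the log2 change was -0.09 without IKO 2, -0.06 without WT 1 and -0.05 without WT 7, and 0.90 without WT 2.

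Apoc2, the lipase activator, was close to absent. WT 2 held 50 counts, the other 6 WT libraries held 0 to 3, and the IKO libraries held 0 or 1 except IKO 7 with 7. A count of 0 in a library allows up to 3 counts. No fold is given, since both medians were 1 count. WT 2 was the highest of the 14 libraries for Apoa1, Apoc3, Dgat1 and Apoc2. The gene for apolipoprotein E beside Apoc2 on chromosome 7 was well expressed in both genotypes (medians 143 and 141 CPM, log2 change -0.19, SE 0.38, adjusted p = 0.77).

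The scaffold gene Apob ranged from 2005 to 7549 CPM in WT mice (median 4389) and from 1306 to 12304 in IKO mice (median 3876). IKO 3, IKO 6 and IKO 7 exceeded every WT mouse, and the other 4 IKO mice were below the WT median. The fold was 1.29 (0.637 to 2.60), with a log2 change of 0.36, SE 0.48 and adjusted p = 0.63.

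Mttp, the transfer protein that lipidates it, had the largest fitted change of the 9. WT mice spanned 638 to 3140 CPM (median 1420) and IKO mice 444 to 5228 (median 3917). A total of 4 IKO mice exceeded all WT mice, while IKO 4 was below all of them. The fold was 1.99 (0.978 to 4.04), with a log2 change of 0.99, SE 0.48 and adjusted p = 0.18. Over the alternatives tried, its log2 change stayed between 0.83 and 1.20, and its adjusted p ran from 0.077 to 0.34.

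The 3 acyltransferase genes had narrower ranges. Mogat2, the main monoacylglycerol acyltransferase of the intestine, ran from 175 to 552 CPM in WT mice (median 351) and from 227 to 670 in IKO mice (median 566), a fold of 1.40 (0.925 to 2.11, adjusted p = 0.25). Dgat2 ran from 108 to 303 CPM in WT mice (median 203) and from 109 to 397 in IKO mice (median 328), a fold of 1.45 (0.919 to 2.30, adjusted p = 0.25). For both genes 4 IKO mice exceeded all WT mice and IKO 4 lay among the lowest. Dgat1, which completes most intestinal triacylglycerol, was between 490 and 1640 CPM in WT mice (median 839) and between 255 and 1198 in IKO mice (median 1015), a fold of 1.10 (0.684 to 1.78, adjusted p = 0.80). No IKO mouse exceeded the highest WT mouse, WT 2. Their relatives Mogat1, Awat1, Awat2 and Dgat2l6 summed to 1.19 CPM or less in every library, and none passed the filter.

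Sar1b came closest to a call. Its WT values were 99.4 to 302 CPM (median 142) and its IKO values 167 to 383 (median 287). Every IKO mouse was above the WT median, 3 IKO mice were above all WT mice and 4 WT mice were below all IKO mice. The fold was 1.64 (1.10 to 2.43), with a log2 change of 0.71, SE 0.27 and adjusted p = 0.0955 (edgeR). It passed the threshold in limma-voom with quality weights (log2 change 0.79, adjusted p = 0.025) and in edgeR without WT 2 (0.89, adjusted p = 0.045), and over all alternatives the adjusted p ran from 0.025 to 0.16. Sar1a, the paralog that also builds COPII coats, was at 59.1 to 81.6 CPM in WT mice and 52.5 to 94.8 in IKO mice (log2 change 0.21, SE 0.14, adjusted p = 0.32). How reads shared by these similar genes were treated in the counting is not given in the sources used here.

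**Figure D2:**
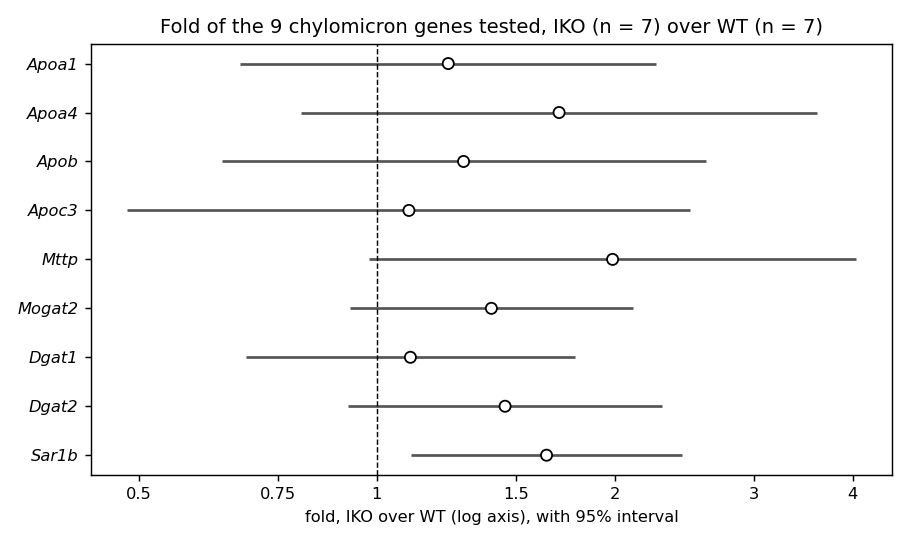
Fold of each tested gene in IKO over WT mice (log axis, dashed line at 1) from edgeR with 7 mice per genotype; bars are 95% intervals and open points did not pass the adjusted threshold. The interval includes 1 for 8 genes and runs from 1.10 to 2.43 for Sar1b.

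Ratios within a library do not depend on its scaling, and 5 were fixed for genes that work as pairs. Apoc2 to Apoc3 is an exception, since 0.5 was added to its counts because of zeros, and it therefore varies with depth. None passed after adjustment over the 5 by exact two-sided permutation of the mice (3432 divisions, smallest possible p 0.000583). The log2 ratio of Sar1b to Sar1a was 1.33 ± 0.64 in WT and 1.91 ± 0.23 in IKO mice (SD, n = 7 each), higher than the WT median in 7 of 7 IKO mice (difference 0.58, exact permutation p = 0.0455, adjusted 0.114). Without WT 2 the difference was 0.75 and the adjusted exact permutation p was 0.0321. Dgat2 to Dgat1 went from -2.05 ± 0.45 to -1.60 ± 0.27, and 6 IKO mice of 7 exceeded the median of WT (difference 0.45, exact permutation p = 0.0396, adjusted 0.114).

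The log2 ratio of Mttp to Apob had a narrow range among WT mice, from -1.96 to -1.24, and a wide one among IKO mice. IKO 1, IKO 2 and IKO 5 were at 0.43, -0.25 and 0.69, above every WT mouse, and the other 4 lay between -1.80 and -1.29, within the WT range. The mean difference was 0.82 (exact permutation p = 0.0769, adjusted 0.128). These 3 mice had the lower Apob levels of the genotype, apart from IKO 4, with 2413 to 3876 CPM. Apoa4 to Apoa1 differed by 0.43 (exact permutation p = 0.136, adjusted 0.17), and Apoc2 to Apoc3 by -1.03 (exact permutation p = 0.238, adjusted 0.238), the last from counts near 0. That last ratio mostly follows the added count, the depth and Apoc3, so it does not measure the balance of both genes.

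**Figure D3:**
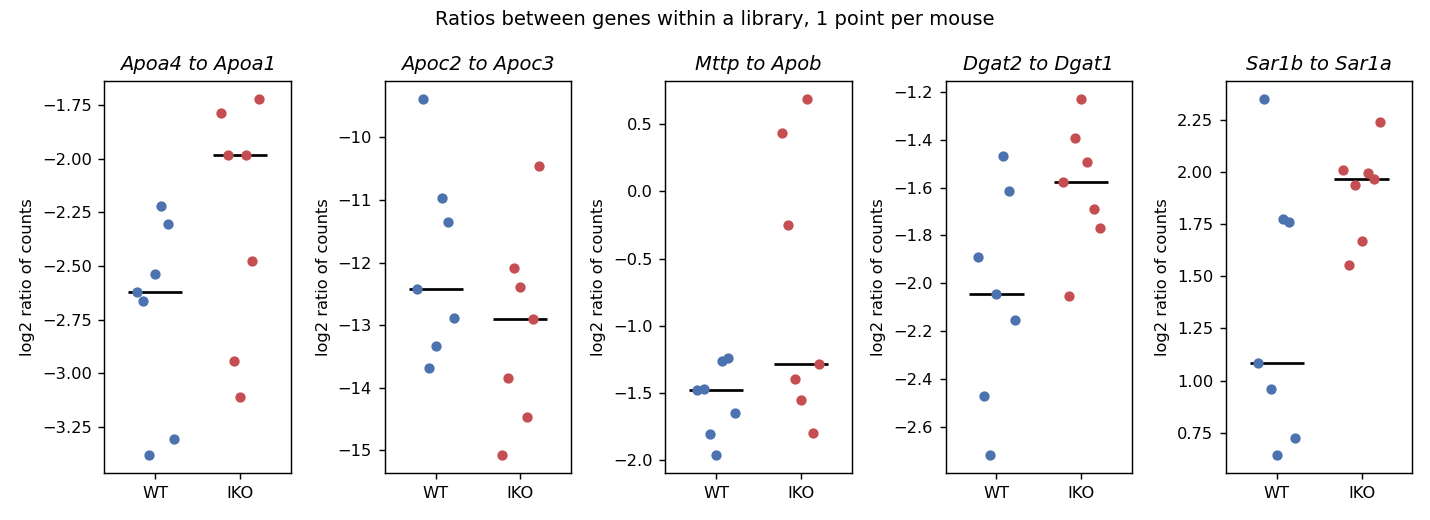
Log2 ratio of counts of gene pairs in each mouse (linear axes that differ between panels); blue points are WT mice, red points are IKO mice (7 each) and bars are medians. All 7 IKO points for Sar1b to Sar1a are above the WT median of 1.08, and 3 IKO points for Mttp to Apob stand above all WT points.

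The genes varied together between mice of one genotype. Deviations of log2 CPM from the genotype mean correlated positively in all 36 pairs of the 9 genes, from r = 0.20 (Apob and Apoc3) to 0.94 (Mttp and Dgat2), with a median of 0.75, over 14 mice that share their library and its scaling. WT 1, WT 7 and IKO 4 were below their genotype mean for all 9 genes. IKO 4 was the lowest IKO mouse for all 9 and WT 7 the lowest WT mouse for 6. WT 2 was the highest WT mouse for 5.

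**Figure D4:**
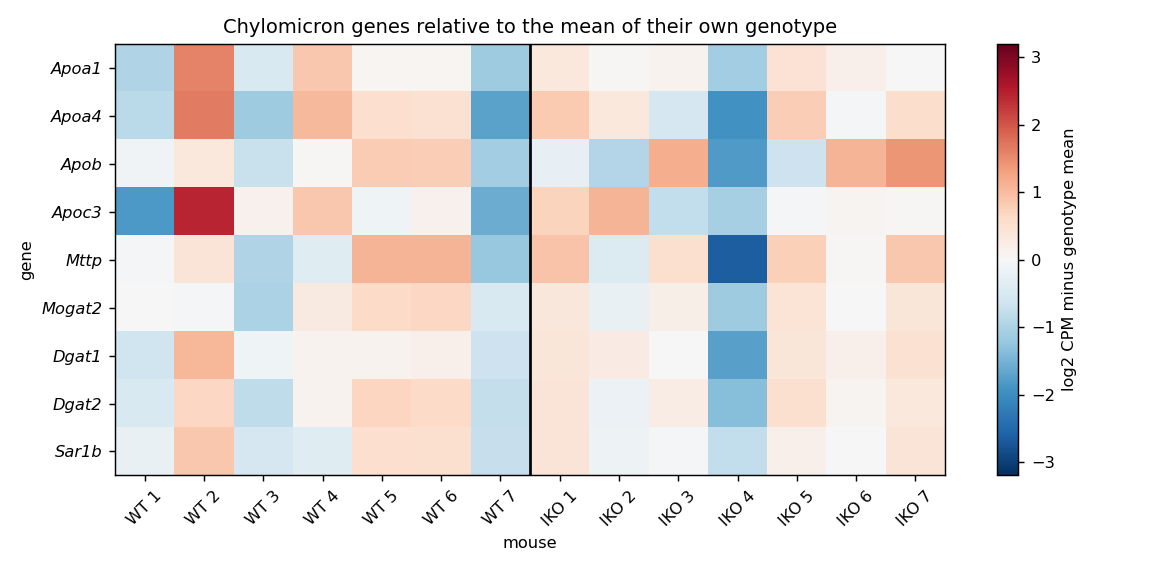
Log2 CPM of each gene (rows) in each mouse (columns) minus the mean of the mouse's genotype, with red above and blue below that mean; the black line parts WT from IKO mice. WT 1, WT 7 and IKO 4 are below their mean in all 9 rows. Apob is the lowest row in IKO 1, IKO 2 and IKO 5 and the highest in IKO 3, IKO 6 and IKO 7.

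A set of 4 correlations was fixed for testing (100000 permutations within genotype, adjusted over the 4). For the clustered genes Apoa1 and Apoa4, r was 0.92 (permutation p = 9.00e-05, adjusted 0.00036) and Spearman's rho 0.85 (permutation p = 0.00063, adjusted 0.00252). The value of r was 0.94 within WT mice (exact permutation p = 0.00119) and 0.90 within IKO mice (exact permutation p = 0.0252), and 0.88 without WT 2 and WT 7. By rank, rho was 0.93 within WT mice (exact permutation p = 0.00675) but 0.64 within IKO mice (exact permutation p = 0.139). Only 16 of the other 13845 genes followed Apoa1 more closely than Apoa4 did. Apoc3, which lies between them on the other strand, followed Apoa1 with r = 0.87 (permutation p = 0.00042, adjusted 0.00084) and rho 0.64 (permutation p = 0.0276, adjusted 0.0276). That relation was 0.95 within WT mice (exact permutation p = 0.00218) but 0.57 within IKO mice (exact permutation p = 0.196), and the difference between genotypes was not tested. Without WT 2 and WT 7 it was 0.73.

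Apoa4 and Apoc3 had r = 0.80 (permutation p = 0.00097, adjusted 0.00129) and rho 0.66 (permutation p = 0.0216, adjusted 0.0276). Their r was 0.83 in WT mice (exact permutation p = 0.0188), 0.76 in IKO mice (exact permutation p = 0.0369), and 0.74 without WT 7 and IKO 4. By rank, rho was 0.68 in WT mice (exact permutation p = 0.110) and 0.57 in IKO mice (exact permutation p = 0.200). A total of 184 genes (1.33%) followed Apoa4 more closely than Apoc3 did. Dgat2 (r = 0.89), Dgat1 (0.88) and Sar1b (0.82) were among them. Apob and Mttp had r = 0.76 (permutation p = 0.00176, adjusted 0.00176) and rho 0.69 (permutation p = 0.00692, adjusted 0.0138). Within WT mice this pair reached 0.98 (exact permutation p = 0.000992), and within IKO mice 0.67 (exact permutation p = 0.0639). Without IKO 4 and IKO 7 it was 0.60. Mttp was not particular in this respect, as 766 genes (5.53%) followed Apob more closely.

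The gene outside the 10 with the most similar deviations over the 14 mice was Cdhr5, a brush border cadherin, for Apoa1 (r = 0.97), Prap1 for Apoa4 (0.97), Mme, a brush border peptidase, for Apob (0.97), and Ltb4r1 for Apoc3 (0.97). It was Nat8f4 for Mttp (0.99), Tm4sf5 for Mogat2 (0.98), Mfsd6l for Dgat1 (0.98), Slc3a2, an amino acid transporter subunit, for Dgat2 (0.99) and Slc7a8, another amino acid transporter, for Sar1b (0.96). None of these 9 genes differed between genotypes past an adjusted p of 0.05 in edgeR, where the lowest was 0.121 (Prap1).

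The chromosomal neighbours of the apolipoprotein genes had no call, where 8.67% of all genes were called and 30.4% had an unadjusted p under 0.05 (edgeR). Within 100 kb of the Apoa1, Apoc3 and Apoa4 cluster, 4 of the 11 other genes passed the filter and 0 were called (edgeR, 1 at an unadjusted p under 0.05, Gm47528). Sik3, Zpr1 and Bud13 were among them. Apoa5, the remaining apolipoprotein gene of the cluster, held 0 to 11 counts per library. Around Apoc2, 9 of 16 other genes passed and 0 were called (1 at an unadjusted p under 0.05, Nectin2). Apoc1 and Apoc4 did not pass, with at most 19 counts in a library.

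Of the pathway lists, the COPII list is the machinery that SAR1B works with. A total of 2 of 19 genes tested rose in IKO mice and 0 fell, which is 10.5% and near the 8.67% of all genes called. The median log2 change of the 19 was 0.29 (all genes -0.09). Gosr2, a SNARE for transport from the ER to the Golgi, was at 54.7 to 100.1 CPM in WT mice (median 71.8) and at 98.8 to 128 in IKO mice (median 117), with a log2 change of 0.65, SE 0.16 and adjusted p = 0.0245. Sec13, a protein of the outer coat, went from 88.9 to 163 CPM (median 102) to 144 to 222 (median 201), with a log2 change of 0.65, SE 0.18 and adjusted p = 0.0414. The genotypes overlapped slightly for both. At an unadjusted p under 0.05 there were 7 of 19, or 36.8%, beside 30.4% of all genes. The count of 2 became 0 without WT 3 and IKO 4, and also without WT 7, IKO 1 or IKO 5 alone, and 4 without WT 2, while DESeq2 called 5. It was 1 without WT 1, WT 3, WT 4, IKO 2, IKO 4 or IKO 7.

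Of 9 partners in ER lipidation, 0 were called by edgeR (8.67% of all genes) and 1 by DESeq2 (13.8%). In edgeR, 2 had an unadjusted p under 0.05, or 22.2%, beside 30.4% of all genes. All 9 log2 changes were above 0, with a median of 0.55, where 43.5% of all genes were above 0. Lpcat3, a phospholipid acyltransferase of the ER membrane that was named after its values were seen, was the nearest to a call. It spanned 125 to 406 CPM in WT mice (median 353) and 165 to 830 in IKO mice (median 728), with IKO 4 the lowest IKO mouse (log2 change 1.05, SE 0.33, adjusted p = 0.0578). Without WT 3 and IKO 4, 1 of the 9 was called, Lpcat3.

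**Figure D5:**
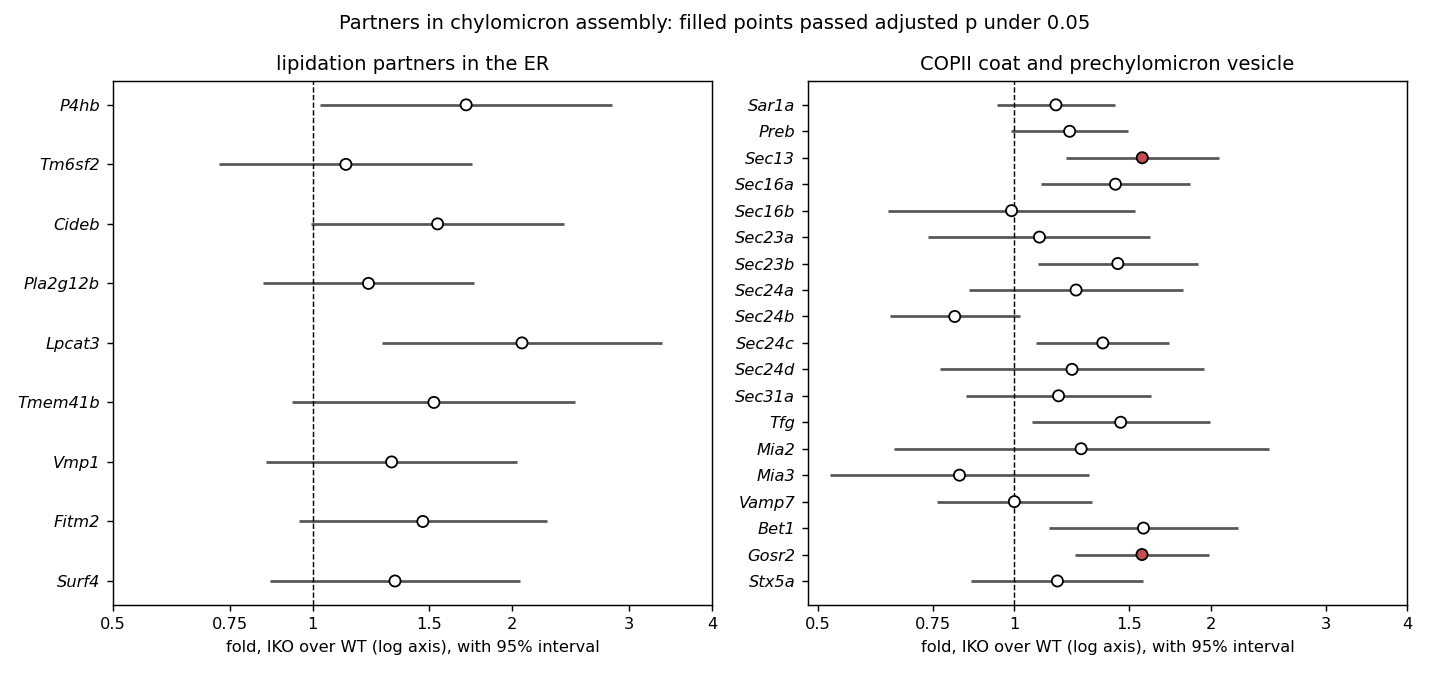
Fold of genes for ER lipidation (left) and for the COPII coat and prechylomicron vesicle (right) in IKO over WT mice (log axes, dashed line at 1), from edgeR with 7 mice per genotype; bars are 95% intervals. The filled points, Sec13 and Gosr2, passed the adjusted threshold; no gene on the left did.

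Among 14 tested transcription factors of enterocyte apolipoprotein genes, 1 rose and 0 fell, a share of 7.14% beside 8.67% of all genes (median log2 change 0.18). Foxo1, a forkhead factor that insulin signalling holds out of the nucleus, was at 25.2 to 34.0 CPM in WT mice (median 30.3) and at 40.8 to 67.6 in IKO mice (median 57.2), without overlap (log2 change 0.93, SE 0.13, adjusted p = 0.00104). It was called in every alternative. Hnf4a is a nuclear receptor that binds direct repeats of the kind searched for above. It had medians of 836 and 1113 CPM (log2 change 0.47, SE 0.19, adjusted p = 0.107, edgeR) and was called by DESeq2. Among 4 tested genes of the list of other apolipoproteins and 7 of plasma lipolysis and chylomicron receptors, 0 were called by edgeR or DESeq2. In edgeR, 0 and 2 had an unadjusted p under 0.05 (0% and 28.6%, all genes 30.4%). The median log2 changes were -0.0012 and -0.53. The first list includes Apobec1 (0.18), the gene of an enzyme that edits Apob mRNA and not an apolipoprotein. The others tested were Apoa2 (0.66), Apoe (-0.19) and Apoh (-0.18).

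Markers of position and cell type are given beside these values. Of all genes, 8.67% were called and 30.4% had an unadjusted p under 0.05 (edgeR), which are the shares for each count below. Proximal enterocyte markers summed to 826 to 7019 CPM in WT mice (median 3142) and 3770 to 15826 in IKO mice (median 9162), with 1 of 6 tested called. This was Fabp1, a cytosolic fatty acid binding protein (medians 681 and 2727 CPM, log2 change 2.17, SE 0.55, adjusted p = 0.0277). Its call was lost without WT 3 and IKO 4 (log2 change 2.13, adjusted p = 0.0557), and also without WT 4 (adjusted p = 0.05001), IKO 1 (0.0573) or IKO 2 (0.0559) alone. Fabp1 and Rbp2 (medians 1892 and 5749 CPM, log2 change 1.24, adjusted p = 0.0713, edgeR) had the highest medians of the list in IKO mice. The list did not move as a whole: 4 of the 6 tested were above 0, while Lct was at -1.01 and Gata4 at -0.0003. Ileal enterocyte markers summed to 1541 to 9676 CPM in WT mice and 1482 to 7147 in IKO mice, and 0 of 6 were called (edgeR, 1 at an unadjusted p under 0.05). None of the ileal markers was at 0 in any library, yet Fabp6, the ileal bile acid binding protein, ran from 24.7 to 7661 CPM over the 14 mice. Villus tip markers summed to 479 to 2644 CPM in WT mice and 1587 to 2005 in IKO mice, and 0 of 6 were called (edgeR, 2 at an unadjusted p under 0.05). Of the 8 general enterocyte markers 0 were called (edgeR, 1 at an unadjusted p under 0.05). WT 7, low for all 9 chylomicron genes, had the lowest enterocyte, proximal and villus tip sums, at 13413, 826 and 479 CPM, and WT 2 had the highest of each among WT mice, at 48604, 7019 and 2644. WT 1, also below its genotype mean for all 9, had 20428.5, 1476 and 554 CPM. IKO 4, the lowest IKO mouse for all 9, had 34006, 6015 and 1759.5 CPM. The first was the lowest IKO sum yet above the WT median of 29902.5, and the last was the IKO median. Members of these lists differed in IKO 4. Cdh1, Epcam, Alpi, Sis and Lct of the enterocyte list had their lowest value of the 14 mice there. So did Nt5e, Slc28a2, Enpp3 and Egfr of the villus tip list. Krt20 had its lowest IKO value there, while Vil1 and Ada had their highest IKO values (5433 and 1377 CPM). Fabp2, the largest part of the enterocyte sum, was above its IKO median of 22828 CPM. Crypt cell markers summed to 102 to 335 CPM in WT mice (median 262) and 78.4 to 207 in IKO mice (median 136). All 5 had log2 changes below 0 (median -1.03), and 0 were called (edgeR, 3 at an unadjusted p under 0.05). Immune cell markers summed to 99.0 to 621 CPM in WT mice (median 435) and 100.7 to 430 in IKO mice (median 355). All 4 were likewise below 0 (median -0.90), with 0 called (edgeR, 2 at an unadjusted p under 0.05). Smooth muscle markers had medians of 22.6 and 10.5 CPM, macrophage markers 44.6 and 45.3, and goblet cell markers 7021 and 7333, with 0 calls of 6, 6 and 4, and 0 of the 1 hepatocyte marker tested (edgeR, 0 in each at an unadjusted p under 0.05). The part of these markers in the values of the chylomicron genes was not tested.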

How the data were processed

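RNA of the ileum mucosa of 14 mice (7 WT, 7 IKO; 1 library per mouse) was made into libraries with the NEBNext Ultra kit, and paired-end reads of 150 bp were taken on an Illumina NovaSeq. The authors aligned the reads with HISAT2 (2.0.5) to mm10 and counted them per gene with featureCounts (1.5.0-p3); the strand setting is not given in the sources used here. The deposited read counts are raw. The deposited FPKM values equal counts divided by gene length and by 1 constant per sample, so they carry the same depth. The submitters' processing notes also name DESeq2 (1.16.1).

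Counts were tested with edgeR (4.0.16; filterByExpr, TMM, quasi-likelihood F-test, genotype as the only term), with Benjamini-Hochberg adjustment over the 13846 genes tested and a threshold of 0.05. CPM used TMM effective library sizes. Folds have 95% intervals from the fit's standard error. Within-library log2 ratios (0.5 added to both counts where a count was 0) were compared by exact permutation, and deviations from the genotype mean of log2 CPM (prior count 2) by permutation within genotype. Every count of 0 allows up to 3 counts, and this limit covers counting error only. Named genes were the 10 chylomicron genes, Ncor1, called genes of each list (up to 6), ratio partners, neighbours and the gene nearest to each by correlation. The genes and lists were chosen with earlier results of these data known. Of 54532 gene identifiers, 53499 had the same coordinates in GENCODE M21, all 10 chylomicron genes included. The scripts were tested on simulated data. No 2 libraries were alike within sampling noise (chi-square of at least 18.1 per gene between any pair). The labels name no batch. DESeq2 (1.42.0), limma (3.58.1) on log2(FPKM + 1) and log2(FPKM + 0.1), for genes above 0.5 FPKM in at least 7 samples, limma-voom with quality weights, other filters and scalings, a replicate block and fits without single mice were the alternatives.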

Additional observations from a re-analysis of the deposited data

Results flagged for a closer look

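In 7 of 30 groups (10 genes and 5 ratios in each genotype), 1 mouse stood apart from the other 6 by a gap of more than 0.568 of the group's whole range; chance flags about 1 in 20 groups, and the groups are not independent, since the genes vary together. IKO 4 was the low mouse for 5 genes: the gap was 0.707 of the range of log2 CPM for Apoa1 (13.2 against an IKO median of 14.4), 0.616 for Mttp (8.79 against 11.9), 0.576 for Mogat2 (7.83 against 9.15), 0.787 for Dgat1 (7.99 against 9.99) and 0.627 for Dgat2 (6.76 against 8.36). This is the library with 50.3% mitochondrially encoded counts. For Apoc2, WT 2 was high, with a gap of 0.951 of the range (3.22 CPM against a WT median of 0.0475), and so was IKO 7, with a gap of 0.860 (0.422 CPM against an IKO median of 0.0554). No ratio had a mouse apart by this measure.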

How the results depend on the processing

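The count of chylomicron genes called was 0 in 22 of 24 alternatives. It was 1 (Sar1b) under limma-voom with quality weights, and 0 to 1 when single mice were left out, with the 1 without WT 2. Apoc3 alone turned direction among the 9, with a log2 change from -0.092 to 0.90 without single mice (-0.092 without IKO 2, -0.057 without WT 1, -0.051 without WT 7 and 0.90 without WT 2). Over all genes, 1200 calls became 2444 with DESeq2, 508 without a filter, 1889 with quality weights and 648 without WT 3 and IKO 4, and 515 to 1371 without single mice (746 without WT 4, 600 without WT 7, 526 without IKO 1, 728 without IKO 2, 515 without IKO 5 and 789 without IKO 7). The COPII count of 2 was 5 with DESeq2, 0 without a filter and without WT 3 and IKO 4, and 0 to 4 without single mice. Calls among ER lipidation partners were 1 with DESeq2, with quality weights and without WT 3 and IKO 4, and 0 to 1 without single mice. Fabp1 lost its call in 5 of 24 alternatives, with a log2 change of 1.85 to 2.46 over all of them. Calls among transcription factors were 2 with DESeq2 (Foxo1 and Hnf4a) and 3 with quality weights (Foxo1, Creb3l3 and Nr5a2). Unlike Foxo1 and Creb3l3, Nr5a2 was lower in IKO mice in the main edgeR fit (log2 change -0.61). The ratio of Sar1b to Sar1a passed without WT 2, and its difference ran from 0.47 to 0.75 when single mice were left out. The other 4 ratios stayed short of the threshold and all 4 correlations stayed past it in the alternatives run; the ratio of Apoc2 to Apoc3 was not run on FPKM. The cause of these changes was not tested. Mice with the same number share only that number: their deviations correlated at -0.31 to 0.23 over the 7 pairs, over 0.1 in 1 pair, and 1 of 7 WT mice correlated best with the IKO mouse of its own number. A replicate block gave 362 calls over all genes, 0 of the COPII list and 0 of the chylomicron genes, ended the call of Fabp1 (adjusted p = 0.0527), and changed no call of a ratio or of the other pathway lists. Depth limits Apoc2 alone among the 10 genes; for the others the spread between mice is the limit.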
